A study of Mus musculus with 24 samples.

Results

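The nuclear genes of the oxidative phosphorylation system were examined in brain microvessels of mice 24 h and 7 days after ischemic stroke. The members were the protein-coding rows whose symbol marks a subunit or a named assembly factor of NADH dehydrogenase (Nduf), succinate dehydrogenase (Sdha to Sdhd), the cytochrome bc1 complex (Uqcr), cytochrome c oxidase (Cox4 to Cox8) or ATP synthase (Atp5), provided that the average of all 24 libraries exceeded 5 normalized counts. The rule found 91 members among 17270 genes in the table, and none was lost to this limit. They comprised 7 core subunits, 29 accessory subunits and 8 assembly factors of complex I, 4 subunits of complex II, 8 of complex III, 18 of complex IV and 17 of complex V. Ndufa4 and its paralogue Ndufa4l2 were placed with complex IV, where the Ndufa4 protein is found. Cox7a2l was also placed there, by its symbol, and Atp5s and Atp5sl, which are no part of the enzyme itself, stayed with complex V.

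Male C57BL/6J mice, 10 to 12 weeks old, underwent transient middle cerebral artery occlusion for 60 min with a silicone-coated filament, or sham surgery in which the filament was withdrawn at once. Care after surgery included warming, fluids and feeding adapted to the state of each animal. After perfusion, and without meninges, cerebellum, brain stem and olfactory lobes, hemispheres of 3 animals were pooled for each library, and vessel fragments were cleared of myelin, sieved and lysed for RNA. The 8 groups of 3 libraries each were sham contralateral, sham ipsilateral, stroke contralateral and stroke ipsilateral at 24 h, and the same 4 at 7 days. The study set further libraries aside as outliers, and these were not analysed here. Values were normalized counts, that is, reads per gene divided by a size factor for each library, and they summed to between 15924780 and 18787932 per library. The fragments hold endothelial cells with attached mural cells and, in part, other brain and blood cells, so a level stands for the whole fragment.

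Oxidative phosphorylation takes place in the inner mitochondrial membrane. Complexes I and II pass electrons from NADH and succinate to ubiquinone, complex III passes them on to cytochrome c and complex IV to oxygen, and complex V makes ATP from the proton gradient that complexes I, III and IV build. A few of the subunits are encoded by mitochondrial DNA and all others by nuclear genes such as the members described here. Brain endothelial cells are known for a high mitochondrial content, and ischemia deprives the chain of its final acceptor, oxygen. Many nuclear genes of the chain are known targets of the transcription factor NRF1 and of the ETS factor GABP.

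Promoter sequence was available for 73 members in RefSeq (GRCm38.p6, the patch release of the build used by the authors, mm10), as the 250 bases before the annotated start. The NRF1 motif (GCGC, any base, then TGCGC) stood on either strand in 13 of these 73 windows (17.8%), against 7.67% of all 11087 windows of protein-coding genes tested. The ETS motif CCGGAAG was found in 17.8% against 12.8%, the hypoxia response element core ACGTG in 19.2% against 21.2%, and TATAAA in 6.85% against 6.63%. The 3 windows printed here, each 5′ to 3′ on the gene's own minus strand, show 3 members that differ in these motifs and on which the results turn. They are Ndufa8 (chr2:36049339-36049588), the member past both limits at 24 h and at 7 days as deposited, Atp5g1 (chr11:96075632-96075881), with the smallest adjusted p of the 91 at 24 h, and Cox7a2l (chr17:83514334-83514583), the member that fell. Capitals mark an NRF1 motif.
Ndufa8: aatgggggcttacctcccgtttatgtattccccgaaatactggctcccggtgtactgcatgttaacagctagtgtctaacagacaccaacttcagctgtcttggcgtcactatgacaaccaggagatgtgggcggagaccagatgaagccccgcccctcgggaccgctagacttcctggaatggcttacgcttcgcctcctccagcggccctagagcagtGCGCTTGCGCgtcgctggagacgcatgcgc
Atp5g1: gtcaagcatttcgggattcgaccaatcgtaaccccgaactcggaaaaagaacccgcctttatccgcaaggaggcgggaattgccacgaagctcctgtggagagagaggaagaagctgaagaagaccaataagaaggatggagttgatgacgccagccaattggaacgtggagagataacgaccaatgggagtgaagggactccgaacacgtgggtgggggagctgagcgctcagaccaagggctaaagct
Cox7a2l: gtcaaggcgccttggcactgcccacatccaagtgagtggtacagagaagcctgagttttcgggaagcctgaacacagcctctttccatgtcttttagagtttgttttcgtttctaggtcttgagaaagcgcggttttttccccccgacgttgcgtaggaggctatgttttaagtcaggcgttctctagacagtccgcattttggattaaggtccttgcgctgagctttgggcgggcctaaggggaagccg
In Ndufa8 the NRF1 motif lay 30 to 21 bases before the start. Atp5g1 held no NRF1 or ETS motif and 3 matches to ACGTG, beginning 86, 44 and 43 bases before the start, of which the last 2 overlap on opposite strands. Cox7a2l held none of the 4 motifs. A match describes letters only, and binding was not measured.

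The members belonged to the abundant transcripts of the preparation. Their median mean was 1351 normalized counts against 316.5 for all 15982 genes tested, 58 members lay above 1000, and 3 lay below 20. Per kilobase of transcript (the median length of a gene's annotated transcripts), the median member reached 1916 normalized counts and the median gene 137. Complex V had the highest median of the enzyme complexes (3299 per kb), led by Atp5b, the catalytic beta subunit (7319). Complex III followed with 2890, led by the hinge protein Uqcrh (6202), and complex II with 2085, led by the flavoprotein Sdha (2685). Complex IV had a median of 1907, led by Cox4i1, the common form of its largest nuclear subunit (7302). In complex I the accessory subunits had a median of 1872, led by Ndufa7 (4374), the core subunits 1389 and the assembly factors 244, led by Ndufaf7 (580). The members were short transcripts, with a median of 710 bases against 2117.5 for all genes tested.

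In all, the members made up 0.719% to 1.08% of each library's normalized counts. In sham ipsilateral libraries at 24 h they summed to 124705, 138775 and 136444, and in stroke ipsilateral libraries at 24 h to 174734, 176599 and 167979. At 7 days the sums were 155588, 160973 and 170277 in sham ipsilateral and 191355, 158444 and 169511 in stroke ipsilateral libraries. The stroke ipsilateral libraries at 24 h thus lay above all 3 sham ipsilateral libraries of the same time, while at 7 days the ranges overlapped. On a log2 scale, with the mean over members set to 0 in sham contralateral 24 h (SD 0.12 over 3 libraries), the level was -0.05 ± 0.09 (SD) in sham ipsilateral, 0.04 ± 0.11 in stroke contralateral and 0.41 ± 0.08 in stroke ipsilateral at 24 h. At 7 days it was 0.26 ± 0.10 in sham contralateral, 0.24 ± 0.06 in sham ipsilateral, 0.27 ± 0.12 in stroke contralateral and 0.30 ± 0.13 in stroke ipsilateral. The 4 groups at 7 days lay within their spread of each other and between the 24 h controls and the 24 h stroke ipsilateral group. Of the 91 members, 64 had their lowest of the 8 group means in sham ipsilateral 24 h, and 45 had their highest in stroke ipsilateral 24 h, 27 in stroke ipsilateral 7 days and 10 in sham contralateral 7 days.

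**Figure D1:**
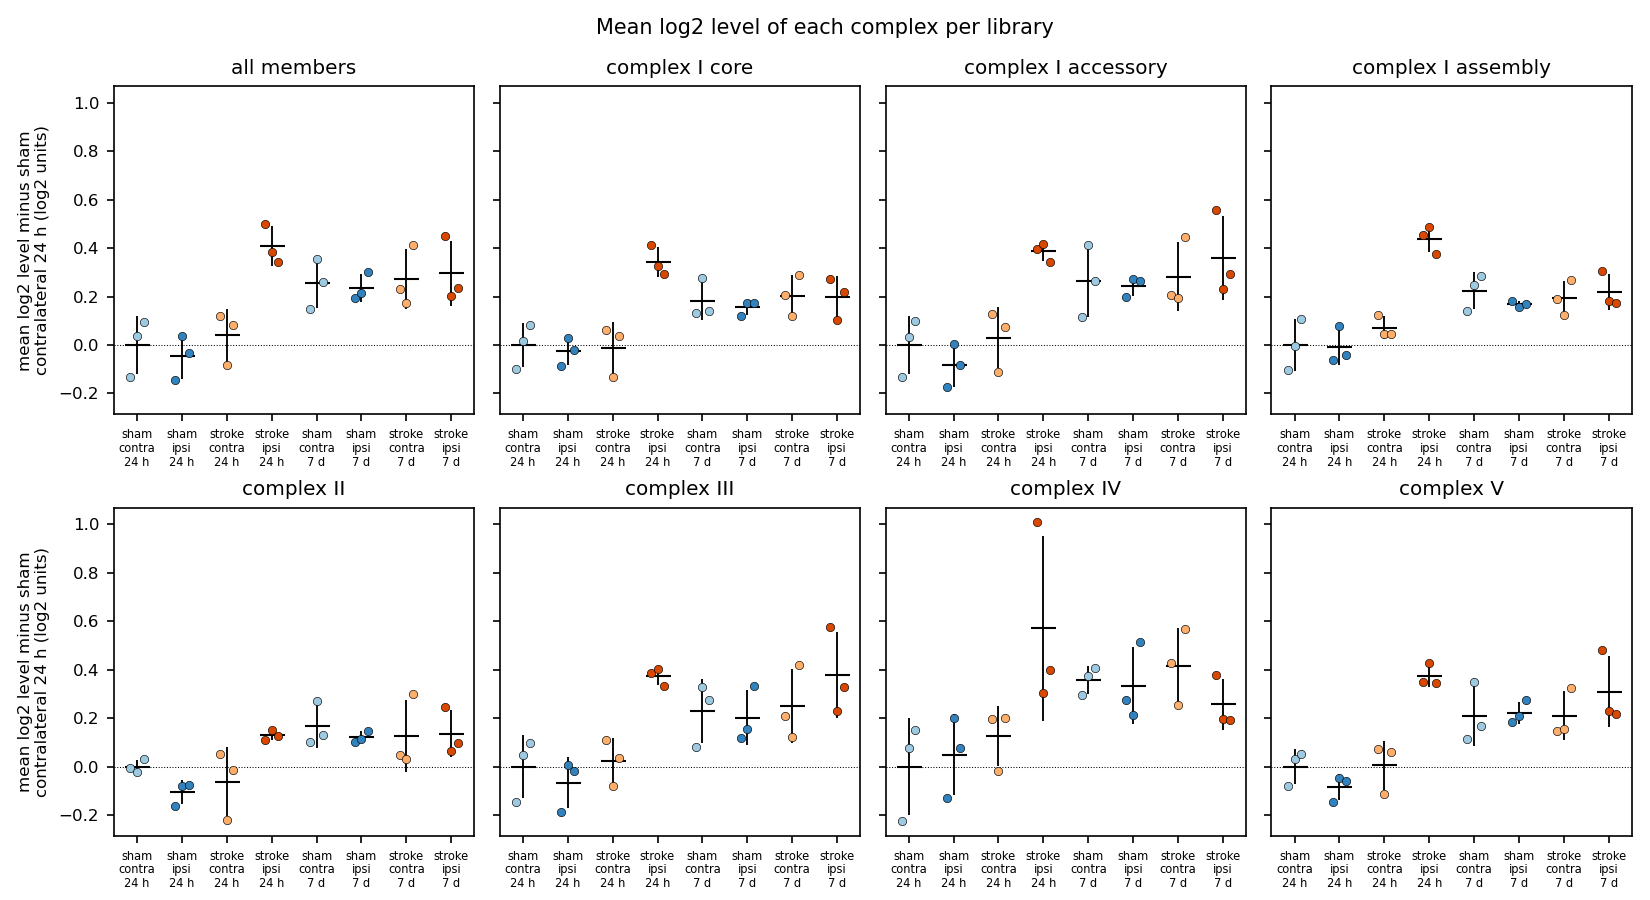
Mean log2 level of the members of each complex in every library (points, 3 per group) with the group mean and SD, relative to the sham contralateral 24 h mean, for the 8 groups. All members together stand highest in the stroke ipsilateral 24 h group (0.34 to 0.50 in its 3 libraries), and the wide bar of complex IV in that group comes with 1 library at 1.01, which carried muscle isoforms.

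Genes were compared with limma on log2(normalized count + 1) over all 8 groups, with Benjamini-Hochberg adjustment over 15982 genes. A gene was called regulated at an adjusted p below 0.05 and a change beyond 0.585 on the log2 scale (1.5-fold), and fold changes of low genes are understated on this scale. The p-values rest on 1 estimate of spread per gene, between the 3 pooled libraries within each group. All 8 groups share it, not only the groups compared. The endothelial marker Cldn5 and the other 11 endothelial markers were above 0 in every group, with Cldn5 between 42176 and 74690 normalized counts. In 1 of the 24 libraries, stroke ipsilateral 24 h replicate 1, 12 striated muscle genes summed to 19334 normalized counts, against 15 to 163 in all others (a list chosen after values were seen). The same library had the highest share of mitochondrially encoded transcripts (4.52%), and stroke ipsilateral 7 days replicate 3 had the lowest (1.07%). For the first of these libraries, total counts of members called and the mitochondrially encoded subunits are given with and without it. The other gene lists, the marker panels, the group levels and the alternative settings are given only with it.

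At 24 h post-stroke, part of the oxidative phosphorylation genes were higher in stroke ipsilateral than in sham ipsilateral vessels. Of the 91 members, 26 were called higher, where 10% of all genes tested were, and 1 was called lower, where 8.23% were. The median log2 fold change was 0.45 for the members and -0.02 for all genes tested, 85 members had a positive value (48.1% of all genes) and 61 passed the adjusted p alone (30.6%), while 30 did not. In 74 members every stroke library lay above every sham library (25% of all genes), and in 2, Cox7a2l and Sdha, every stroke library lay below (24.1%). Of the 26, 18 were called in each of the 6 fits that left out 1 library of these groups. Without the library with muscle transcripts, 23 members were called higher, and Ndufs6, Ndufa3, Ndufb4 and Atp5g2 were no longer and Ndufs5 newly among them.

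The number of calls depended on the reference and on transcript length. Where each library's trends with length and GC content were removed, 8 members, or 8.79%, were called higher, which is near the 8.41% of all genes, and the median was 0.25, against -0.01 for all genes. These were Atp5g1, Cox6b2, Cox7b, Ndufaf4, Ndufaf6, Ndufaf8, Ndufb7 and Uqcrq, and Cox7a2l was still lower. Where all 6 sham ipsilateral libraries of both time points served as the reference, an alternative chosen after the members' levels in the sham groups had been seen, 7 members, or 7.69%, were called higher, below the 9.28% of all genes, with a median of 0.29 against -0.00. Under both, Atp5g1, Cox6b2, Cox7b, Ndufaf4, Ndufaf6 and Uqcrq were called. By median annotated length, Atp5g1 (2675.5 bases) and Ndufaf4 (2152.5 bases) counted as long transcripts. The correction left them almost unchanged, from 1.21 to 1.24 and at 0.77, so it could hardly have removed their calls. With the median of all genes set equal in all libraries, 18 members were called higher, where 8.32% of all genes were, and the median over all genes moved from -0.02 to -0.09, with 1330 genes higher and 1707 lower instead of 1603 and 1316.

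Among the genes that are no members, the median at 24 h fell from 0.25 in transcripts under 500 bases to 0.16, 0.09, -0.08 and, above 4000 bases, -0.25. The 13 members under 500 bases had a median of 0.60, the 53 between 500 and 1000 bases 0.47, the 21 between 1000 and 2000 bases 0.30 and the 4 above 0.63. The members' median lay above that of the other genes of their own length in all 4 bins, of which the last holds few. Of the members, 6 of 13, 16 of 53, 2 of 21 and 2 of 4 were called higher in these bins, and of other genes 16.5%, 15.9%, 13% and 7.43%. Between 1000 and 2000 bases the members' share was thus below that of the other genes.

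**Figure D2:**
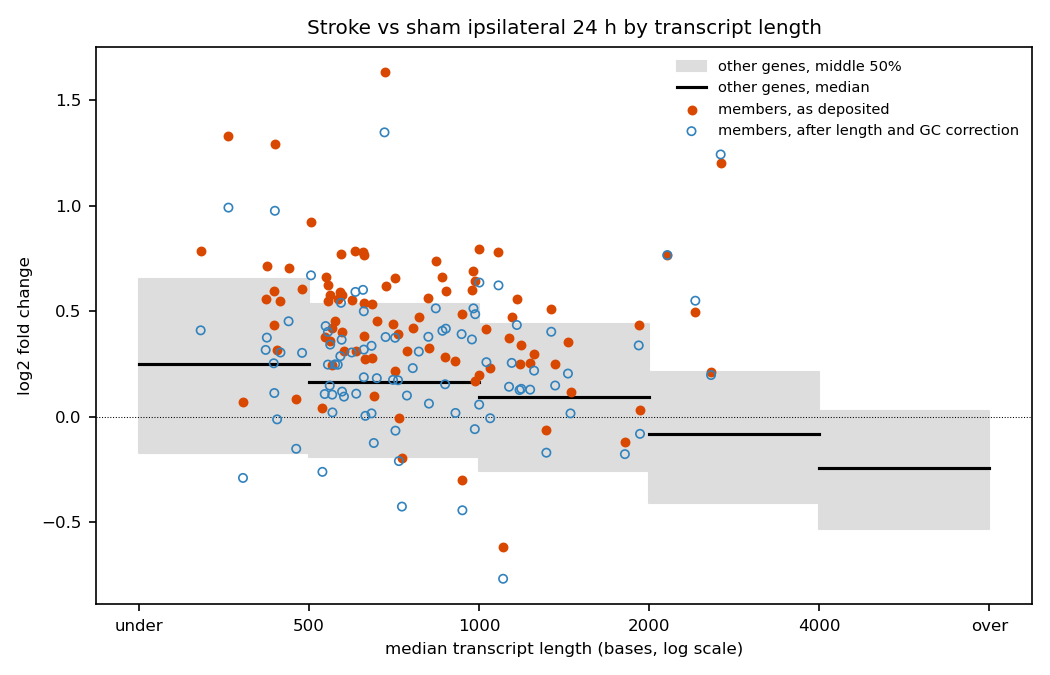
Log2 fold change of stroke against sham ipsilateral at 24 h by transcript length: median (line) and middle 50% (grey) of the other genes in each length bin, and the members as points, filled as deposited and open after the length and GC correction. The x axis is logarithmic. Among the other genes, the median fell from bin to bin with length (0.25 under 500 bases, -0.25 above 4000). The members' uncorrected medians lay above those of the other genes in each bin that held members.

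Complex I contributed 13 of the 26 members called higher. One of 7 core subunits passed, with a median of 0.35. Ndufs8, an iron-sulfur subunit, had 833, 977 and 824 normalized counts in sham ipsilateral and 1528, 1389 and 1324 in stroke ipsilateral libraries at 24 h. All stroke values lay above all sham values, with a log2 fold change of 0.69 (SE 0.13, limma with Benjamini-Hochberg adjusted p = 0.000746). The smallest value of the core belonged to Ndufs1, the largest iron-sulfur subunit, with 1302, 1321 and 1390 in sham and 1323, 1464 and 1512 in stroke libraries (0.10, adjusted p = 0.292 by limma), which overlapped.

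Of 29 accessory subunits of complex I, 9 were called higher and 0 lower, with a median of 0.49. In 28 of the 29 the stroke libraries lay entirely above the sham libraries. Ndufb7, a subunit on the intermembrane space side, went from 958, 1108 and 1003 to 1853, 1832 and 1592 (log2 fold change 0.78, SE 0.12, limma adjusted p = 8.91e-05). Ndufb6, Ndufa12, Ndufa8, Ndufab1, Ndufa3, Ndufb4, Ndufs4 and Ndufs6 followed with 0.59 to 0.77. Ndufab1 is the mitochondrial acyl carrier protein and also serves fatty acid synthesis and iron-sulfur cluster assembly. Ndufs6 stood just inside the limit of 0.585 on the fold change (0.59) and Ndufa11 just outside (0.58). Ndufa7, the most abundant accessory subunit per kilobase, had the smallest value (0.04, limma adjusted p = 0.865), with 1917, 1969 and 2075 in sham and 2184, 1883 and 2067 in stroke libraries.

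Of the 8 assembly factors of complex I, 3 were called higher, with a median of 0.51. Ndufaf8 had 240, 294 and 263 normalized counts in sham and 473, 490 and 411 in stroke libraries (0.78, SE 0.17, limma adjusted p = 0.00205). Ndufaf6, a factor of low abundance, had 57, 62 and 56 in sham and 120, 95 and 90 in stroke libraries (0.78, SE 0.16, limma adjusted p = 0.00121). Ndufaf4 had 247, 282 and 253 in sham and 429, 469 and 433 in stroke libraries (0.77, SE 0.14, limma adjusted p = 0.000447). In each of the 3 the stroke libraries were all higher than the sham libraries. Ndufaf7, a methyltransferase, did not pass, with a value of -0.07.

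Complex II, which is also an enzyme of the tricarboxylic acid cycle, had no member past both limits. Its median was 0.29, and Sdhb and Sdhc passed the adjusted p alone. Sdhb, the iron-sulfur subunit, had 1368, 1498 and 1552 in sham and 2137, 2138 and 1860 in stroke libraries, and the ranges did not overlap (0.47, SE 0.10, limma adjusted p = 0.00146). Sdha, its catalytic partner, had 4706, 4827 and 4818 in sham and 4380, 4241 and 4599 in stroke libraries (-0.12, limma adjusted p = 0.265). Sdha was thus lower in every stroke library, by a margin that did not pass the test.

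In complex III, 2 of 8 members were called higher, with a median of 0.40. Uqcrq, a small subunit next to cytochrome b, had 831, 1058 and 1041 in sham and 2076, 1785 and 1688 in stroke libraries. The groups did not overlap, and the log2 fold change was 0.92 (SE 0.13, limma adjusted p = 3.91e-05). Uqcrb, another small subunit, had 1153, 1261 and 1190 in sham and 1768, 2067 and 1886 in stroke libraries (0.66). Uqcrh, the most abundant member of the complex per kilobase, had the smallest value (0.08, limma adjusted p = 0.68), with 2214, 2519 and 2795 in sham and 2564, 2692 and 2693 in stroke libraries. Of Uqcrb, 43.4% of its 50-base windows also occur in transcripts of other genes, and the authors dropped reads that match several places.

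In complex IV, 6 of 18 members were called higher and 1 lower. Cox7b, a small subunit, had 960, 1238 and 1086 in sham and 1807, 2020 and 1850 in stroke libraries, with no overlap (0.80, SE 0.12, limma adjusted p = 6.35e-05). Cox5b, Ndufa4, Cox7c and Cox6b1 had 0.77, 0.71, 0.63 and 0.60. Cox6b2, an isoform known from testis, was rare, with 27, 65 and 27 in sham and 99, 91 and 82 in stroke libraries. Its log2 fold change of 1.29 (SE 0.30, limma adjusted p = 0.00299) came with 1 sham library far above the other 2. Upstream of Cox6b2 (chr7:4751792-4753094) on the same strand, 19278 bases away, lies Il11, a cytokine gene, which went from 9, 30 and 7 to 3160, 3280 and 1977 normalized counts. Whether reads from beyond Il11 contribute to Cox6b2 was not tested.

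Cox7a2l, placed with complex IV by its symbol, was the 1 member called lower at 24 h. It had 1784, 1777 and 1897 normalized counts in sham ipsilateral and 1139, 1180 and 1238 in stroke ipsilateral libraries, with a log2 fold change of -0.62 (SE 0.13, limma adjusted p = 0.00133). Its stroke contralateral libraries held 1881, 1657 and 1829, so that the 3 stroke ipsilateral libraries were the lowest of all 24. Cox7a2, the common form, had 1587, 1852 and 1784 in sham and 2361, 2424 and 2354 in stroke libraries (0.45), and its stroke libraries, unlike those of Cox7a2l, all lay above the sham libraries.

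Complex IV also has pairs of common and special forms. Cox4i1 had 4106, 4639 and 4828 in sham and 5559, 5743 and 5498 in stroke libraries, which did not overlap, but the change of 0.31 did not pass (limma adjusted p = 0.0896). Cox4i2, the isoform known for its response to oxygen, had 565, 673 and 610 in sham and 616, 457 and 545 in stroke libraries (-0.20, limma adjusted p = 0.374). Ndufa4 had 1784, 2086 and 2019 in sham and 3074, 3467 and 3064 in stroke libraries (0.71, SE 0.13, limma adjusted p = 0.000554). Its paralogue Ndufa4l2, known as a gene induced by hypoxia-inducible factor and as a marker of brain pericytes, had 1448, 1907 and 1572 in sham and 1453, 1017 and 1565 in stroke libraries (-0.30, limma adjusted p = 0.194). Only Ndufa4 of these 4 was called, and the difference between paralogues was not itself tested. The 9 pericyte and mural cell markers summed to 100016 to 124783 in sham and 61593 to 92469 in stroke ipsilateral libraries at 24 h. Of these markers, 3 of 9 were called lower, where 8.23% of all genes were. The part of this in the values of Cox4i2 and Ndufa4l2 was not tested. In such mixed fragments, fewer cells of a type and less RNA per cell cannot be told apart.

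The isoforms of heart and skeletal muscle, Cox6a2, Cox7a1 and Cox8b, were listed at low levels in most libraries. Cox6a2 had 14, 9 and 6 normalized counts in sham ipsilateral and 284, 10 and 9 in stroke ipsilateral libraries at 24 h. Cox8b had 1, 11 and 8 against 122, 1 and 13, and Cox7a1 had 25, 25 and 26 against 83, 19 and 20. The high value belonged each time to the library with the 12 striated muscle genes. The log2 fold change of Cox6a2 was 1.63 with and 0.05 without this library, that of Cox8b 1.33 and -0.18, and that of Cox7a1 0.32 and -0.36, and none of them was called. The median over complex IV was 0.55 with and 0.39 without it. The common forms Cox6a1 (0.58, limma adjusted p = 0.00177, just under the limit on the fold change) and Cox8a (0.24) had 2339, 2584 and 2826 and 2894, 3145 and 3079 in sham and 3972, 4075 and 3504 and 3585, 3880 and 3347 in stroke libraries.

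**Figure D3:**
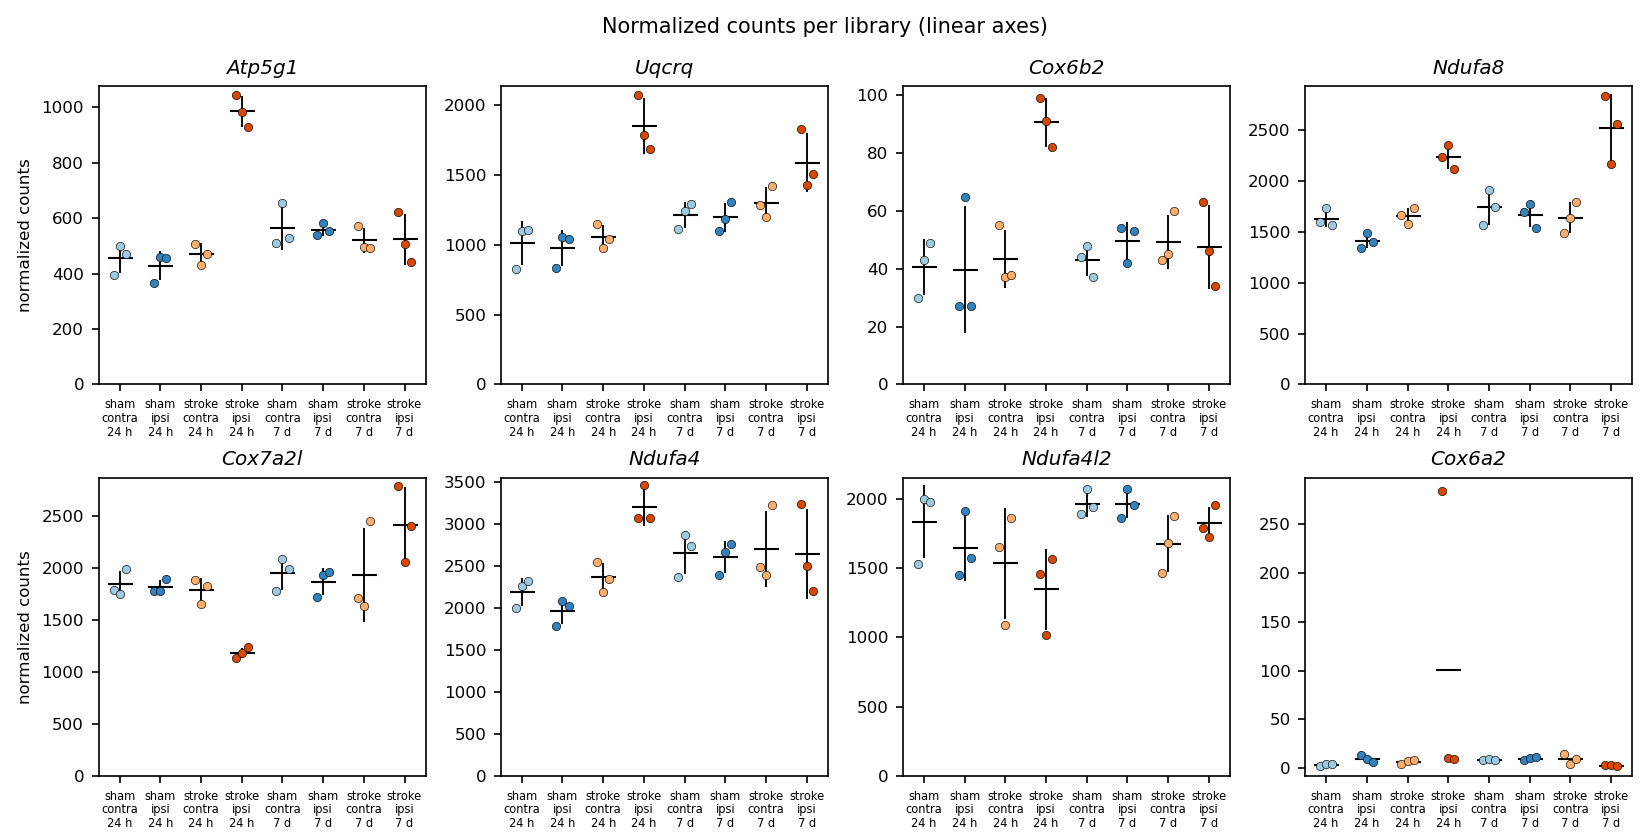
Normalized counts of 8 members in every library (points) with the group mean and SD, on linear axes, for the 8 groups (no SD is drawn for Cox6a2). Atp5g1, Uqcrq, Cox6b2 and Ndufa4 stand highest in stroke ipsilateral 24 h, Ndufa8 stays high at 7 days, Cox7a2l is lowest at 24 h and highest at 7 days in stroke ipsilateral libraries, and Cox6a2 is high in 1 library (284) only.

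In complex V, 5 of 17 members were called higher, with a median of 0.43. Atp5g1, Atp5g2 and Atp5g3 encode the same mature c subunit of the rotor ring with different import sequences. Atp5g1 had 367, 461 and 458 normalized counts in sham and 1043, 983 and 930 in stroke libraries, with no overlap. Its log2 fold change was 1.21 (SE 0.13, limma adjusted p = 2.57e-06). Atp5g2 had 216, 236 and 205 in sham and 368, 344 and 301 in stroke libraries (0.62, called), and Atp5g3, the most abundant of the 3 per kilobase, had 2201, 2449 and 2495 in sham and 3202, 3144 and 3014 in stroke libraries (0.39, limma adjusted p = 0.0029, below the limit on the fold change). All 3 genes were higher in every stroke library.

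Atp5k, a subunit of the membrane part, had 715, 867 and 819 in sham and 1415, 1449 and 1271 in stroke libraries (0.79, SE 0.12, limma adjusted p = 0.000115). Atp5e, the epsilon subunit of the central stalk, and Atp5o, which joins the catalytic head to the outer stalk, had 0.72 and 0.66. Atp5b had 11026, 12697 and 12624 in sham and 16995, 16450 and 15532 in stroke libraries, with no overlap and a change of 0.43 (SE 0.10, limma adjusted p = 0.0035). At the other end was Atp5s, a coupling factor, with 115, 110 and 89 in sham and 109, 100 and 102 in stroke libraries (-0.01). Atp5l is listed at a low level, and 84.8% of its windows also occur in 14 other genes, 12 of them pseudogenes, so its value (0.36) is uncertain. Of the windows of Atp5o, 47.6% are shared.

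**Figure D4:**
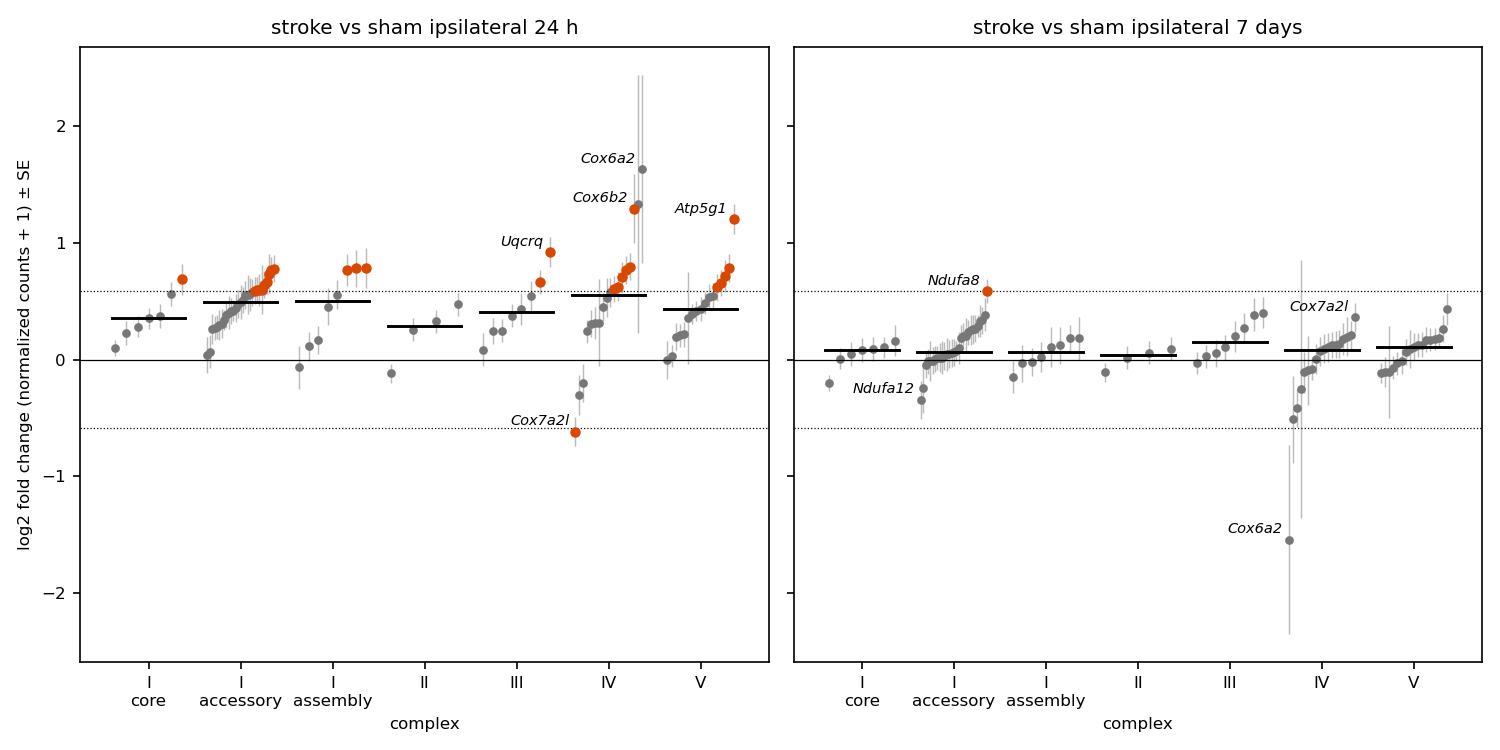
Log2 fold change of stroke against sham ipsilateral for each of the 91 members (points, with SE, red where called) by complex, at 24 h and at 7 days, with the median of each complex (line) and the limits of 0.585 (dotted). At 24 h most points lie above 0 in every complex, and at 7 days the medians lie between 0.04 and 0.15.

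Against the contralateral hemisphere of stroke animals, 12 members were called higher at 24 h (8.51% of all genes) and 1 lower (5.14%). The median was 0.39, 55 members passed the adjusted p alone (24.4% of all genes) and 81 had a positive value (48.4%). In 68 members all ipsilateral lay above all contralateral libraries (21.7% of all genes), and in 2, Ndufaf7 and Cox7a2l, all lay below (19.1%). Called higher were Cox6b2, Atp5g1, Uqcrq, Ndufaf8, Ndufa12, Ndufaf6, Ndufs8, Cox5b, Atp5k, Atp5e, Ndufb7 and Cox7b, and Cox7a2l was lower. The comparison shares its stroke ipsilateral libraries with the one against sham. Uqcrq had 1148, 975 and 1045 in stroke contralateral libraries, and Atp5g1 had 508, 432 and 472. Without the library with muscle transcripts, 10 were called higher, and Cox7a2l, Ndufaf6 and Ndufb7 were no longer called. With median centring 4 were called higher (Atp5g1, Cox6b2, Ndufaf8 and Uqcrq), where 6.86% of all genes were, and with the length and GC correction 3 (Atp5g1, Ndufaf4 and Uqcrq), where 6.73% were. The median was then 0.31 and 0.18, and 7 members were called higher without contralateral replicate 2.

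At 7 days post-stroke, 1 of the 91 members was called higher in stroke ipsilateral than in sham ipsilateral vessels (3.27% of all genes) and 0 lower (9.95%), by limma. Without adjustment, 12 members were higher and 3 lower at p below 0.05 by limma. The share of all genes at an unadjusted p was not computed in any comparison. In all, 5 members passed the adjusted p (16.9% of all genes). The median was 0.08, against 0.02 for all genes tested, and 66 members had a positive value (53% of all genes). In 14 members the stroke libraries lay entirely above the sham libraries (13.4% of all genes) and in 6 entirely below (16.6%).

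The member called was Ndufa8, an accessory subunit of complex I that is needed for its assembly. It had 1699, 1775 and 1536 normalized counts in sham ipsilateral and 2836, 2164 and 2563 in stroke ipsilateral libraries at 7 days, with no overlap. The log2 fold change was 0.59 (SE 0.10, limma adjusted p = 0.000327), just inside the limit, and it fell below the limit when sham replicate 3, stroke replicate 1 or stroke replicate 3 was left out, with 0.50 as the lowest value. With the length and GC correction Ndufa8 was called at neither time, with 0.41 at 24 h and 0.54 at 7 days. Against the contralateral hemisphere at 7 days, with 1487, 1641 and 1791, Ndufa8 was also the 1 member called higher (0.62, limma adjusted p = 0.000151, 3.03% of all genes higher), and 0 were lower (9.98%, with 1 member lower at an unadjusted p below 0.05). At 24 h it had risen from 1344, 1490 and 1404 to 2240, 2354 and 2122 (0.66, limma adjusted p = 8.07e-05). Its promoter window is the one above with an NRF1 motif.

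The other 4 members passed the adjusted p but not the limit on the fold change at 7 days. Uqcrq had 1103, 1183 and 1307 in sham and 1830, 1430 and 1509 in stroke libraries (0.40, limma adjusted p = 0.0358). Atp5e had 2007, 2118 and 2271 in sham and 3407, 2584 and 2689 in stroke libraries (0.43, limma adjusted p = 0.0363). Both were higher in every stroke library, as was Ndufb3 at 0.29. Ndufs1 had 1433, 1294 and 1422 in sham and 1165, 1242 and 1192 in stroke libraries (-0.20, limma adjusted p = 0.0469) and was lower in each.

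At 7 days the extremes of the other complexes did not pass. Sdhb was the largest of complex II at 0.09 and Sdha the smallest at -0.11. Uqcrc2, a core protein of complex III, had the smallest value there (-0.03), with 3003, 2859 and 3216 in sham and 3309, 2631 and 2978 in stroke libraries, and Atp5g3 the smallest of complex V (-0.11). Ndufa12 had 507, 528 and 555 in sham and 538, 441 and 306 in stroke libraries (-0.34, limma adjusted p = 0.169), a wide spread within the stroke group. Ndufaf7 (0.18) and Ndufaf4 (-0.15) bounded the assembly factors, and Ndufs8 was the largest of the core subunits (0.16). Cox6a2 had 8, 10 and 11 in sham and 3, 3 and 2 in stroke libraries (-1.54, limma adjusted p = 0.213), and Cox7a2l was the largest of complex IV (0.36).

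From 24 h to 7 days within stroke ipsilateral vessels, 1 member was called higher (3.72% of all genes) and 4 lower (8.44%), with a median of -0.04 that equalled that of all genes. Cox7a2l went from 1139, 1180 and 1238 to 2789, 2060 and 2403 (1.02, limma adjusted p = 3.19e-05), from the lowest group of the 8 to the highest. Called lower were Atp5g1, which went from 1043, 983 and 930 to 621, 506 and 442 (-0.93, limma adjusted p = 1e-04), Ndufaf4 (-0.84), Cox6b2 (-0.95) and Cox6a2. The value of Cox6a2 was -3.12 with and -1.53 without the library with muscle transcripts, and it was called in both, while Cox6b2 was not called without that library.

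The stroke against sham difference itself changed between the time points in 13 members. By the interaction term of the limma fit, 12 were lower at 7 days than at 24 h (5.68% of all genes) and 1 was higher (2.43%), and the median was -0.35. The sham libraries enter this term. From 24 h to 7 days the members' median change was 0.31 in sham ipsilateral and -0.04 in stroke ipsilateral vessels. In all, 20 members passed the adjusted p (10.2% of all genes), and 10 had a positive value (46.7%). Among the members called, the lowest values were those of Cox6b2 (-1.39, limma adjusted p = 0.0395), Atp5g1 (-1.31, limma adjusted p = 0.00021) and Ndufa12 (-1.08, limma adjusted p = 0.00603). Ndufaf4, Ndufaf6, Ndufb6, Ndufa4, Atp5k, Atp5o, Cox5b, Cox7b and Ndufab1 were the others, and for Cox7a2l the term was positive (0.98, limma adjusted p = 0.00199), with -0.62 at 24 h, which was called, and 0.36 at 7 days, which did not pass (limma adjusted p = 0.057). Without the library with muscle transcripts 10 members were lower, among them Uqcrb, and Cox5b, Cox6b2 and Ndufaf6 were no longer called. With median centring, as with the length and GC correction, 4 members were lower, namely Atp5g1, Ndufa12, Ndufaf4 and Ndufb6, against 4.29% and 4.19% of all genes, and Cox7a2l was higher in both. The median was then -0.24 and -0.17, and leaving out 1 library gave 6 to 23 lower, the fewest without sham 24 h replicate 1 or stroke 7 days replicate 3 and the most without stroke 7 days replicate 1. Cox6a2 had a lower value than any called member (-3.18) but did not pass (limma adjusted p = 0.0806).

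**Figure D5:**
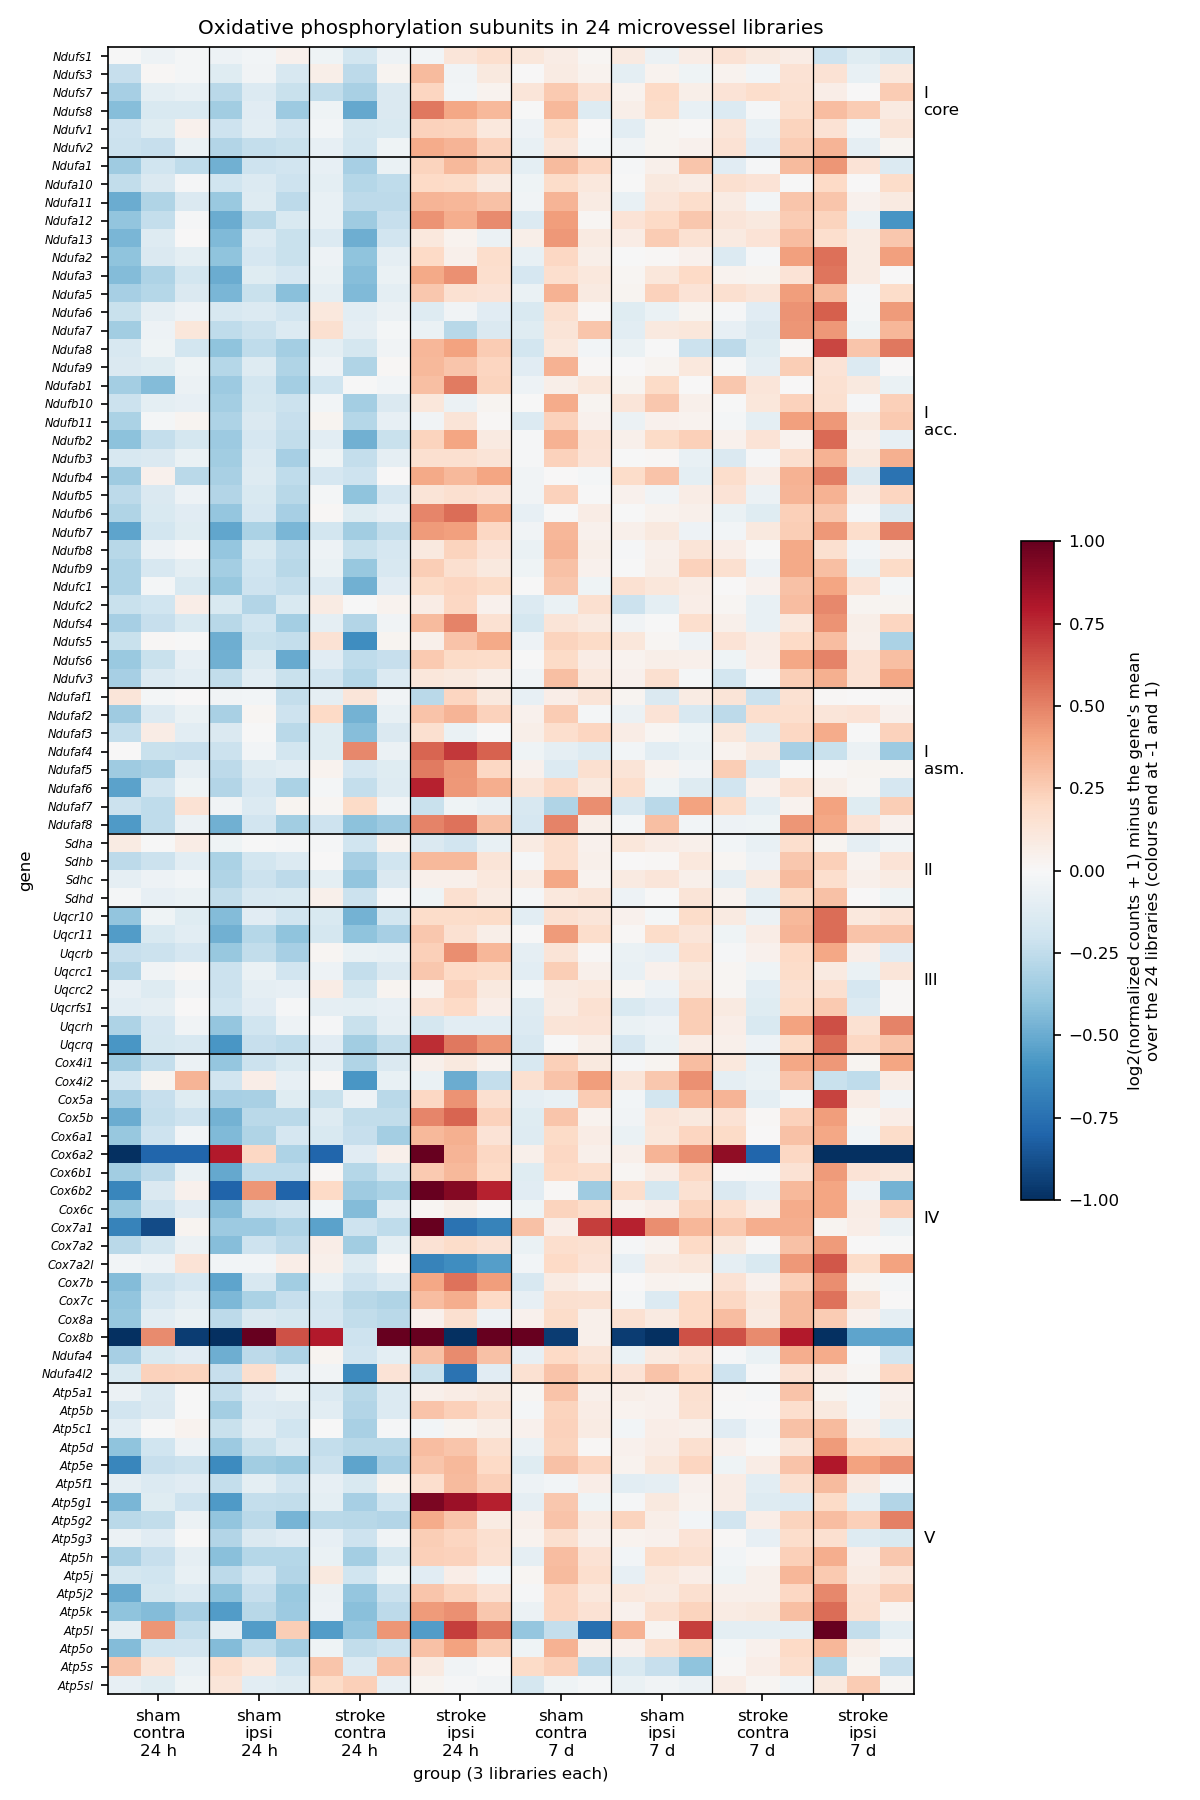
Log2 level of members (rows, by complex) in the 24 libraries (columns, by group), relative to its own mean over all libraries, with colours that end at -1 and 1. Of the 91 members 64 have their lowest group mean in sham ipsilateral 24 h and 45 their highest in stroke ipsilateral 24 h, Cox7a2l is lowest in the latter group, and the scattered rows, such as Cox6a2 and Cox8b, are the members at low levels.

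In the control groups, no member was called in any of the 7 comparisons among sham and contralateral groups by limma. Of all genes tested, 0% were called between sham hemispheres at either time and between contralateral groups at 24 h. Between contralateral stroke and sham at 7 days 0.025% were higher and 0.00626% lower. From 24 h to 7 days 0.3% were higher and 0.175% lower in sham ipsilateral, 0.232% and 0.1% in sham contralateral and 0% in stroke contralateral vessels. At an unadjusted p below 0.05 there were 0 members in sham ipsilateral against contralateral at either time and 0 in stroke contralateral against sham contralateral at either time. Between 7 days and 24 h, however, 57 members were higher at an unadjusted p below 0.05 in sham ipsilateral, 42 in sham contralateral and 41 in stroke contralateral vessels, and 0 were lower. No share of all genes was computed for this unadjusted limit. The medians were 0.31, 0.25 and 0.24, against medians of -0.00, -0.01 and 0.00 for all genes tested, and the sign was positive in 88, 89 and 85 of the 91 members (49.6%, 48.8% and 50.1% of all genes). All 7-day libraries lay above all 24 h libraries in 68 members for sham ipsilateral (11.9% of all genes), in 48 for sham contralateral (9%) and in 40 for stroke contralateral (8.23%).

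Of these members, Atp5o (0.49, limma adjusted p = 0.0443) and Atp5k (0.54, limma adjusted p = 0.0473) passed the adjusted p in sham ipsilateral vessels (0.588% of all genes), and neither reached the limit on the fold change. Atp5k had 715, 867 and 819 at 24 h and 1084, 1179 and 1229 at 7 days, against 1415, 1449 and 1271 in stroke ipsilateral at 24 h. Atp5b went from 11026, 12697 and 12624 to 14262, 14353 and 15512 (0.28), and Cox7a2l differed by 0.04. No source gives the days on which the libraries were prepared, and whether they moved with the time point was not tested.

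Other genes of the pathway were read from lists of known function. Of the 13 subunits encoded by mitochondrial DNA, 7 were analysed, and none was called at either time. Their medians were 0.54 at 24 h and 0.19 at 7 days, with 1 stroke library far from the others each time. At 24 h this was replicate 1, the library with muscle transcripts, without which the median was 0.24 and again none was called. At 7 days it was replicate 3, without which the median was 0.72 and 5 of the 7 were called higher (mt-Nd1, mt-Co1, mt-Nd4, mt-Nd5 and mt-Cytb, with limma adjusted p from 0.0071 to 0.0431). Both libraries were left out after the values were seen. The 7-day library was picked by the level of these same transcripts, so the calls without it cannot serve as a test. The share of all genes called without it is not given. mt-Nd2 had 32854, 33634 and 35484 in sham and 82425, 44162 and 39391 in stroke ipsilateral libraries at 24 h (0.62, limma adjusted p = 0.273, and 0.30 without replicate 1). At 7 days it had 35053, 35996 and 40214 against 58606, 54167 and 9950. mt-Nd6 (0.72) and mt-Co1 (0.24) bounded the 24 h values, and mt-Nd6 (0.73) and mt-Nd2 (-0.23) those at 7 days.

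Of 31 assembly factors of complexes II to V, 5 were called higher at 24 h, where 10% of all genes were, with a median of 0.34. Uqcc2, needed for complex III, had 671, 864 and 789 in sham and 1650, 1634 and 1337 in stroke libraries (0.99, limma adjusted p = 3.46e-05). Sco2, a copper chaperone for complex IV, had 54, 72 and 50 in sham and 113, 110 and 112 in stroke libraries (0.93). Both were clear of the sham range, as were Pet100 (0.66), Bcs1l (0.61) and Cox18 (0.61), which the naming rule did not cover and which are given because they were called. Atpaf1, for complex V, had the smallest value (-0.27). At 7 days 0 were called, where 3.27% of all genes were higher and 9.95% lower, and 1 passed the adjusted p (16.9%). Uqcc3 (0.44, limma adjusted p = 0.035) and Sco2 (-0.47, limma adjusted p = 0.151) had the largest and smallest values. None of the 7 other complex I assembly factors was called (median 0.08), and Ecsit had the largest value (0.46, limma adjusted p = 0.00738) and Tmem126b the smallest (-0.08). At 7 days Nubpl (0.16) and Tmem186 (-0.20) took these places, and neither passed.

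Of 9 electron carriers and nucleotide exchangers, 3 were called higher at 24 h (10% of all genes), with a median of 0.37. Cycs, the gene of cytochrome c, had 244, 273 and 309 in sham and 586, 595 and 462 in stroke libraries (0.99, limma adjusted p = 0.00048). The ADP/ATP carrier Slc25a5 (0.76) and the ubiquinone synthesis gene Coq7 (0.63), named because they were called, were the others, and Coq9 had the smallest value (-0.13). At 7 days Etfb, a subunit of the electron transfer flavoprotein, was called higher, with 238, 350 and 315 in sham and 495, 381 and 589 in stroke libraries (0.69, limma adjusted p = 0.0104), and Cycs was at -0.12. Of the 17 enzymes of the tricarboxylic acid cycle, 11 passed the adjusted p at 24 h (30.6% of all genes), with a median of 0.30. None of the 17 passed the limit on the fold change. Mdh2, malate dehydrogenase, came closest with 2802, 2983 and 3086 in sham and 4487, 4653 and 4070 in stroke libraries (0.57, limma adjusted p = 0.000224), and Idh2 was at -0.13. At 7 days Idh3a was lower (-0.29, limma adjusted p = 0.0349, under the limit on the fold change), and Suclg1 had the largest value (0.14).

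Of 12 regulators of mitochondrial biogenesis, 1 was called higher at 24 h (10% of all genes) and 1 lower (8.23%). Pprc1, a coactivator induced in growth, had 332, 436 and 461 in sham and 893, 942 and 706 in stroke libraries (1.05, limma adjusted p = 0.00151). Ppargc1a, which encodes the coactivator PGC-1alpha, had 96, 74 and 58 in sham and 39, 38 and 31 in stroke libraries at 24 h (-1.03, limma adjusted p = 0.0119). At 7 days it had 60, 68 and 77 against 20, 28 and 25 (-1.46, limma adjusted p = 0.00146), with no overlap at either time. Nrf1, the factor of the motif above, did not pass at 24 h (limma adjusted p = 0.976), and Gabpb1 had the largest value at 7 days (0.22, limma adjusted p = 0.165). Ppargc1a is also expressed by neurons. The 10 neuronal markers summed to 7581 to 8918 in sham and 3393 to 4894 in stroke ipsilateral libraries at 24 h. Of these 10 markers, 5 were called lower then (8.23% of all genes) and 9 at 7 days (9.95%). Their part in the values of Ppargc1a was not tested.

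Markers of other cells moved with the same comparisons. Of 9 neutrophil and monocyte markers, 7 were called higher at 24 h, with sums between 5180 and 10968 in sham and between 30755 and 41554 in stroke ipsilateral libraries. The 12 endothelial markers summed to between 405147 and 496586 in sham and to between 350911 and 393602 in stroke libraries at 24 h, where 2 of them were called lower. At 7 days the endothelial sums were 367449 to 496449 and 419946 to 535679, and 4 of 7 markers of the choroid plexus were called lower, with sums of 15953 to 29130 in sham and 704 to 3235 in stroke libraries. Of 7 astrocyte markers 4 were called lower at 24 h, with sums of 16789 to 25422 in sham and 10964 to 16984 in stroke ipsilateral libraries. The sham contralateral sums at 24 h, 13207 to 15293, lay within the stroke ipsilateral range. At 7 days 6 of 6 proliferation markers tested were called higher. Of all genes, 10% were called higher and 8.23% lower at 24 h, and 3.27% and 9.95% at 7 days. No marker of these lists was at 0 throughout an ipsilateral group. The part of these cells in the levels of the members was not tested.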

How the data were processed

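Messenger RNA of 24 libraries was sequenced from a stranded poly(A) preparation. Per the paper and the submitters' notes, the authors aligned trimmed reads to mm10 with STAR (2.5.2b in the notes, where the paper names another release), dropped reads matching several places, counted per gene (featureCounts 1.5.1 in the notes) and normalized with DESeq2 (1.6.2 in the notes). The deposited values are normalized counts rounded to whole numbers, treated here as a score, since they are no raw counts and each library's own depth is unknown. Columns of the authors' own comparisons were not used.

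limma 3.58.1 in R 4.3.3 (trend on, pseudocount 1) was fitted to the 15982 genes with a mean above 5, with all 24 libraries in 8 groups. It was tested on simulated data first. Coordinates and lengths came from the table and the GENCODE annotation of GRCm38, which gave a length for 99.9% of genes, and 72 of 91 members matched it in position within 5 bases. The members and lists were chosen with earlier results of these data known. Named are the largest and smallest value of each complex and list at each time, the called members (the 8 largest where over 20), paralogue pairs and the most abundant member of each complex per kilobase. Any others were chosen after their values were seen. Alternatives were pseudocount 0.5, a minimum mean of 20 or none, median centring, a correction for length and GC content, no limit on the fold change, only the groups compared, 80 members without assembly factors and rare paralogues, a replicate block and leaving out each library. The reported fits hold no pairing. Same-numbered hemispheres deviated together in sham animals (correlations 0.15 to 0.41 at 24 h and 0.32 to 0.47 at 7 days) and in part of the stroke pairs (0.07, 0.36 and 0.33 at 24 h, and 0.06, 0.31 and 0.06 at 7 days). The labels do not state that they come from the same animals. The values of 1 member are not reported here, although it enters the counts and medians.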

Additional observations from a re-analysis of the deposited data

Results flagged for a closer look

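The difference between stroke and sham ipsilateral vessels changed from 24 h to 7 days in 13 members, by the interaction term of limma. It also changed in 8 of the other pathway genes named above. Of all genes tested, 5.68% were called lower and 2.43% higher by this term. The 8 were sought only among genes named as extremes of their lists at either time, or because they were called at 24 h. Such a choice favours a large difference between the time points, so their number cannot be set against that share. Among the members the 7-day difference was lower on the log2 scale by the following amounts. In complex V the term was -1.31 for Atp5g1, -0.68 for Atp5k and -0.67 for Atp5o. In complex IV it was -1.39 for Cox6b2, -0.70 for Ndufa4, -0.66 for Cox5b and -0.66 for Cox7b. In complex I it was -1.08 for Ndufa12, -0.91 for Ndufaf4, -0.81 for Ndufaf6, -0.76 for Ndufb6 and -0.65 for Ndufab1. Cox7a2l was the exception among the members, at 0.98.

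Outside the members the term was -1.40 for Sco2, -0.85 for Uqcc2, -0.73 for Bcs1l and -0.66 for Ecsit, all assembly factors. It was -1.10 for Cycs, -0.72 for Slc25a5, -0.68 for Idh3a and -1.31 for Pprc1. The sham ipsilateral libraries enter this term, and their own median difference between the time points was 0.31 over the members, with no member called. After median centring, and likewise after the length and GC correction, 4 of the 12 lower members were still called (Atp5g1, Ndufa12, Ndufaf4 and Ndufb6). These are 4.4% of the members, near the 4.29% and 4.19% of all genes. Leaving out 1 library gave 6 to 23 lower. Without the library with muscle transcripts, Cox5b, Cox6b2 and Ndufaf6 were no longer called.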

How the results depend on the processing

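Pseudocount and filter on the mean kept each count of called members within 1.5 times, and leaving out assembly factors and rare paralogues kept the medians within the spread between replicates. With no limit on the fold change, calls against sham numbered 60 higher with 1 lower at 24 h and 4 higher with 1 lower at 7 days. Of all genes, 30.6% and 16.9% were then called in either direction. Against contralateral, 54 were higher with 1 lower at 24 h (24.4% of all genes in either direction) and 2 higher with 1 lower at 7 days. From 24 h to 7 days in stroke ipsilateral vessels 3 were then higher and 9 lower. The interaction term was lower in 19 and higher in 1 (10.2% of all genes in either direction). In sham ipsilateral at 7 days against 24 h 2 were called (0.588%). The shares of all genes in the remaining comparisons were not computed for this setting. After the length and GC correction, 8 were higher at 24 h against sham (median 0.25), 0 at 7 days, 3 against contralateral at 24 h and 0 at 7 days, 2 were higher from 24 h to 7 days and 4 had a lower interaction term, where 8.41%, 6.47%, 6.73%, 5.86%, 6.56% and 4.19% of all genes were called. With median centring, 4 were higher against contralateral at 24 h (6.86% of all genes), 2 higher from 24 h to 7 days (5.88%) and 4 lower by interaction (4.29%). With 6 sham libraries as the reference, 7 were higher at 24 h (9.28% of all genes, median 0.29) and 2 at 7 days, Ndufa8 and Atp5e (4.09%, median 0.23). With only the groups compared, Cox6a2 was the 1 member lower at 7 days. The causes were not tested.

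Leaving out 1 library gave 21 to 32 members higher at 24 h against sham and 0 to 1 at 7 days, where the median ran from -0.0082 (without stroke replicate 1, where the sign turned) to 0.14. Against contralateral it gave 7 to 17 higher and 0 to 1 lower at 24 h, the fewest higher without contralateral replicate 2, and the lower call was lost without contralateral replicate 1 or 3 or ipsilateral replicate 1. At 7 days it gave 0 to 1 higher (0 without contralateral replicate 1 or ipsilateral replicate 1) and 0 to 1 lower (1 without ipsilateral replicate 1). From 24 h to 7 days it gave 1 to 3 higher, most without the 7-day replicate 2, and 3 to 7 lower, most without the 7-day replicate 1. The interaction gave 6 to 23 lower, 6 without sham 24 h replicate 1 or stroke 7 days replicate 3 and 23 without stroke 7 days replicate 1.

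A replicate block by number, or by mouse pool between hemispheres, changed no count of called members (26 higher at 24 h against sham, 1 at 7 days, 12 against contralateral at 24 h). Stroke and sham libraries share only a number (correlations from -0.25 to 0.15). Depth per library is unknown, and 3 pools per group limit the precision of values below 20 normalized counts.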
